A study of Mus musculus with 15 samples.

Results

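The kinesin genes taken here are the rows whose GRCm38 symbol is Kif followed by a number and at most 1 letter. There were 38 such genes among 22524 rows, and the 34 with at least 10 counts in 7 libraries are reported. The other 4 were Kif2b, with no count in any library, and Kif12, Kif18b and Kif2c, with at most 14 counts in any library. The choice of the 34 used the counts themselves, as a floor applied without regard to genotype. Members just inside the floor were Kif14 and Kif15, which reached 10 counts in 7 libraries each (Kif14 in 3 D95N and 4 wild-type, Kif15 in 4 D95N and 3 wild-type). Just outside were Kif18b and Kif2c, which reached it in 1 library each. Each of the 34 also passed the expression filter of the test.

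RNA was sequenced from 7 mice with 1 Rps9 D95N allele (Rps9 encodes a component of the ribosome's small subunit) and from 8 wild-type littermates (Rps9 WT / Rps9 WT). All 15 were female C57BL/6 animals aged 18 months, and libraries are named by genotype and animal number. The design text gives the tissue as brain cortex, but each sample is labelled skeletal muscle. Neuronal markers were abundant in both genotypes and muscle markers were low: Snap25 averaged 2746 CPM in D95N and 2843 CPM in wild type, and Acta1, skeletal muscle actin, 5.88 CPM in D95N and 6.46 CPM in wild type. CPM values are read counts relative to the scaled library size. Of 12 muscle genes listed, 8 were abundant enough to test, with a median log2 fold change of -0.52. Of these 1 was lower in D95N, as were 11.6% of all genes tested. The summed level of the 12 was 69.0 to 94.3 CPM in D95N and 68.5 to 128 CPM in wild type. Total counts ran from 23349381 to 34587082 per library. Rps9 itself averaged 63.1 ± 6.13 CPM across D95N (SD, n = 7) and 65.3 ± 3.02 CPM across wild type (SD, n = 8; edgeR, adjusted p = 0.505), and gene counts cannot show the substitution.

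Kinesins are motor proteins that turn ATP hydrolysis into steps along microtubules, mostly toward the plus end, which in axons points to the synapse. In neurons they carry vesicle precursors, mitochondria, receptors and cytoskeletal proteins away from the cell body. Other members of the family act on the spindle of dividing cells, in cilia, or on microtubule ends without carrying cargo.

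**Figure D1:**
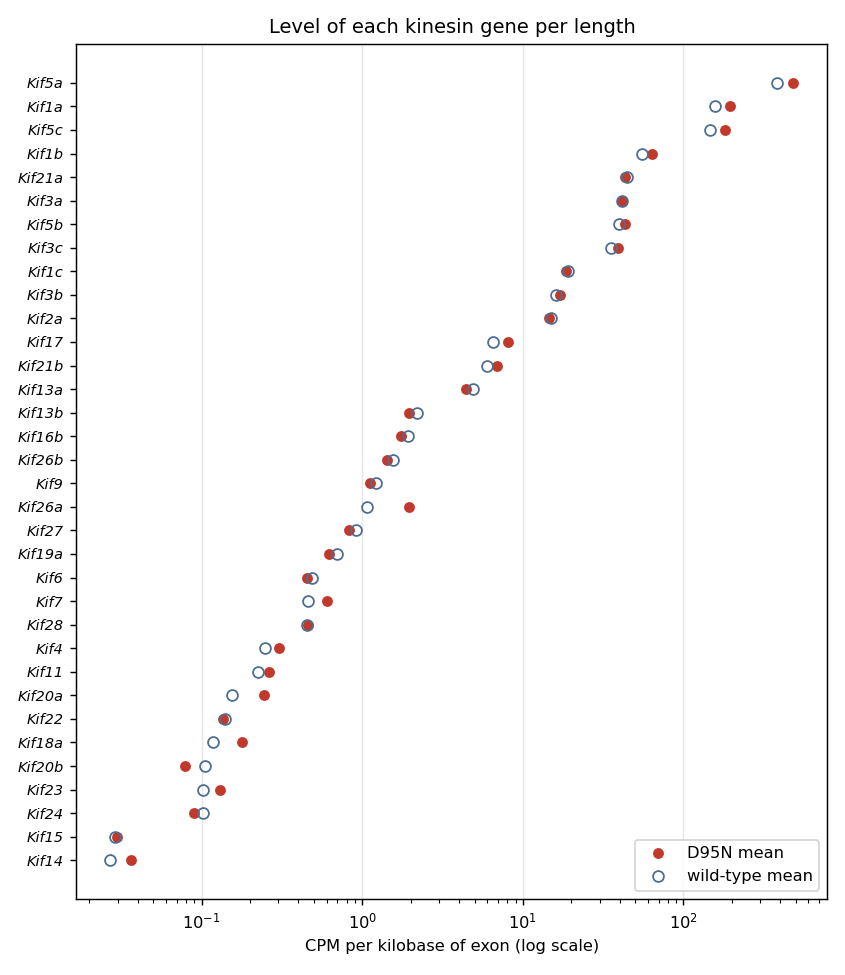
Mean CPM per kilobase of exon of the 34 kinesin genes (log axis) in D95N (filled) and wild type (open), ordered by the wild-type mean. Kif5a, Kif1a, Kif5c and Kif1b stand above all others in both genotypes, and the spindle motors Kif14 and Kif15 are lowest.

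The 34 genes differed widely in level. Per kilobase of exon, Kif5a was highest at 483 CPM in D95N and 382 CPM in wild type. Kif1a followed at 195 CPM in D95N and 158 CPM in wild type, then Kif5c at 182 and 146 CPM and Kif1b at 64.0 and 55.5 CPM, in the same order of genotypes. The lowest were Kif14, at 0.0364 and 0.0271 CPM per kilobase, and Kif15, at 0.0298 and 0.0290 CPM per kilobase. Kif5a, Kif1a, Kif5c and Kif1b together made up 80.8% to 82.9% of the summed kinesin CPM in D95N libraries and 79.0% to 79.7% in wild-type libraries. Summed over the 34 genes, kinesin transcripts took 0.927% ± 0.0434 of scaled counts in D95N (SD, n = 7) and 0.775% ± 0.0131 in wild type (SD, n = 8). The lowest D95N library, at 0.852%, lay above the highest wild-type library, at 0.790%.

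Of the 34 kinesin genes 11 rose and 1 fell in D95N (edgeR's quasi-likelihood test, adjusted p under 0.05 over all 14989 genes tested). That is 35.3% of the family, against 26.8% of all genes tested, of which 15.2% were higher and 11.6% lower. With library totals in place of the scaling factors, 1808 of all genes were higher and 2536 lower, and with upper-quartile factors 1926 and 2351, against 2272 and 1744. Both of these scalings gave 9 higher and 1 lower among the kinesins, without Kif17 and Kif5b. The median log2 fold change was 0.06 over the kinesins and -0.01 over all genes tested. For 5 members, Kif5a, Kif5c, Kif1a, Kif1b and Kif3c, each D95N library exceeded every wild-type one, a pattern found in 1.81% of all genes tested. No member had all D95N libraries below all wild-type libraries, which held for 1.47% of genes. The calls were unevenly spread over levels: of 18 members with a mean of at least 10 CPM, 9 rose and 1 fell, and of 16 members below it 2 rose. Over all genes too, calls were more frequent at higher levels. Of those with a mean of at least 10 CPM 30.9% were called (3140 of 10177), against 26.8% of all 14989.

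**Figure D2:**
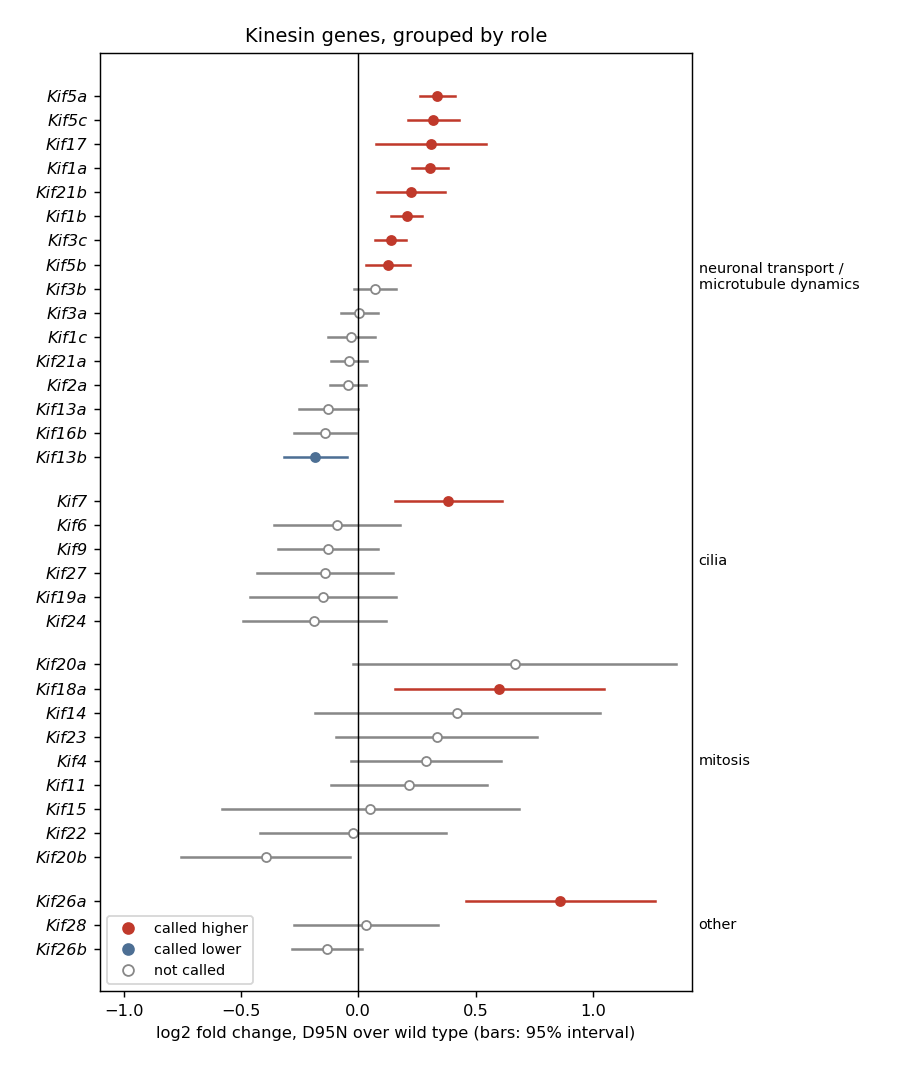
Log2 fold change of each kinesin gene, D95N over wild type, with its 95% interval, grouped by role. All 3 Kif5 genes lie right of 0 and are called, as are 1 of 6 cilia genes (Kif7) and 1 of 9 spindle genes (Kif18a). Over all genes tested 26.8% were called.

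Markers of some cell types and regions differed by genotype too, and these counts stand beside 26.8% of all genes called. No gene was called among 10 for microglia and 11 for the choroid plexus, and 1 of 12 for oligodendrocytes was lower. Of 12 pan-neuronal genes 4 were higher and 2 lower in D95N, with a median log2 fold change of 0.09 over the 12. Their summed level was 9759 to 10621 CPM in D95N and 9612 to 10124 CPM in wild type. Of 9 hippocampal genes 1 was higher and 2 lower, with summed levels of 443 to 767 CPM in D95N and 435 to 518 CPM in wild type. Of 10 endothelial genes 3 were lower, with summed levels of 219 to 281 CPM in D95N and 237 to 368 CPM in wild type. Of 10 blood cell genes tested 9 were lower in D95N, with summed levels of 37.8 to 150 CPM in D95N and 84.4 to 319 CPM in wild type. Of 16 meningeal fibroblast genes 7 were lower and 1 higher, of 12 astrocyte genes 5 were lower, and of 13 striatal genes 7 were lower. Summed levels were 126 to 250 and 217 to 303 CPM for meningeal fibroblasts, 5498 to 6521 and 6239 to 6639 CPM for astrocytes, and 1259 to 2219.9 and 1437 to 2125 CPM for the striatum, D95N first. When scores of the blood and meningeal lists were added as covariates, 25 of all genes and no kinesin passed by edgeR. The log2 fold changes kept their sign in each of the 12 called members, with adjusted p from 0.0578 (Kif5a) to 0.605 (Kif13b). Several stayed close to the values without covariates: 0.31 against 0.34 for Kif5a, 0.30 against 0.32 for Kif5c, 0.14 against 0.13 for Kif5b and 0.23 against 0.23 for Kif21b. Smaller in size were Kif1a at 0.23 against 0.31, Kif1b at 0.14 against 0.21, Kif13b at -0.09 against -0.18 and Kif3c at 0.10 against 0.14. So were Kif7 at 0.28 against 0.38, Kif17 at 0.25 against 0.31 and Kif26a at 0.65 against 0.86. Kif18a was larger, at 1.07 against 0.60. Both lists themselves differed by genotype, as given above, so these covariates overlap with it. The part of the neuronal, hippocampal, endothelial and astrocyte differences in the kinesin result was not tested. In bulk tissue, a change in the share of a cell type and a change in RNA per cell cannot be told apart.

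Kinesin-1 motors, built from Kif5a, Kif5b or Kif5c heavy chains, are the main carriers of fast axonal transport. Kif5a and Kif5c are enriched in neurons and Kif5b is found in most cells. Kif5a (ENSMUSG00000074657, chromosome 10, 127225696 to 127263348, minus strand) ran from 2963 to 3527 CPM in D95N, with a median of 3432 CPM, and from 2559.8 to 2741 CPM in wild type, with a median of 2667 CPM. The groups did not overlap, although D95N 42 stood apart from the other D95N libraries, the next lowest of which was at 3339 CPM. D95N exceeded wild type by 0.34 ± 0.03 on the log2 scale (SE), or 1.26-fold (edgeR, adjusted p = 7.69e-05), and it had the smallest p of the family. Kif5c (ENSMUSG00000026764, chromosome 2, 49619298 to 49774778, plus strand) ran from 1139 to 1437 CPM in D95N, with a median of 1260.5 CPM, and from 998 to 1072 CPM in wild type, with a median of 1039 CPM. D95N 4, 21 and 44 were highest, at 1421 to 1437 CPM, and D95N 28 and 42 were nearest to wild type, with no overlap between genotypes. The gain was 0.32 ± 0.05 on the log2 scale (SE; edgeR, adjusted p = 0.000488).

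Kif5b (ENSMUSG00000006740, chromosome 18, 6201002 to 6242174, minus strand) rose less. It ran from 301.3 to 390.2 CPM in D95N, with a median of 344 CPM, and from 301.5 to 323 CPM in wild type, with a median of 317 CPM. D95N 28 was below every wild-type library and the other 6 were above all of them. On the log2 scale it was higher by 0.13 ± 0.04 (SE; edgeR, adjusted p = 0.0390). The call held in 4 of the 15 fits that leave out 1 library, those without D95N 28, D95N 42, D95N 50 or wild-type 16, and adjusted p ran from 0.00653 to 0.0766 over the 15. Per length, Kif5a made up 68.3% ± 1.73 of kinesin-1 transcripts in D95N (SD, n = 7) and 67.4% ± 0.356 in wild type (SD, n = 8). Kif5b made up 6.10% ± 0.358 in D95N and 6.97% ± 0.121 in wild type.

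**Figure D3:**
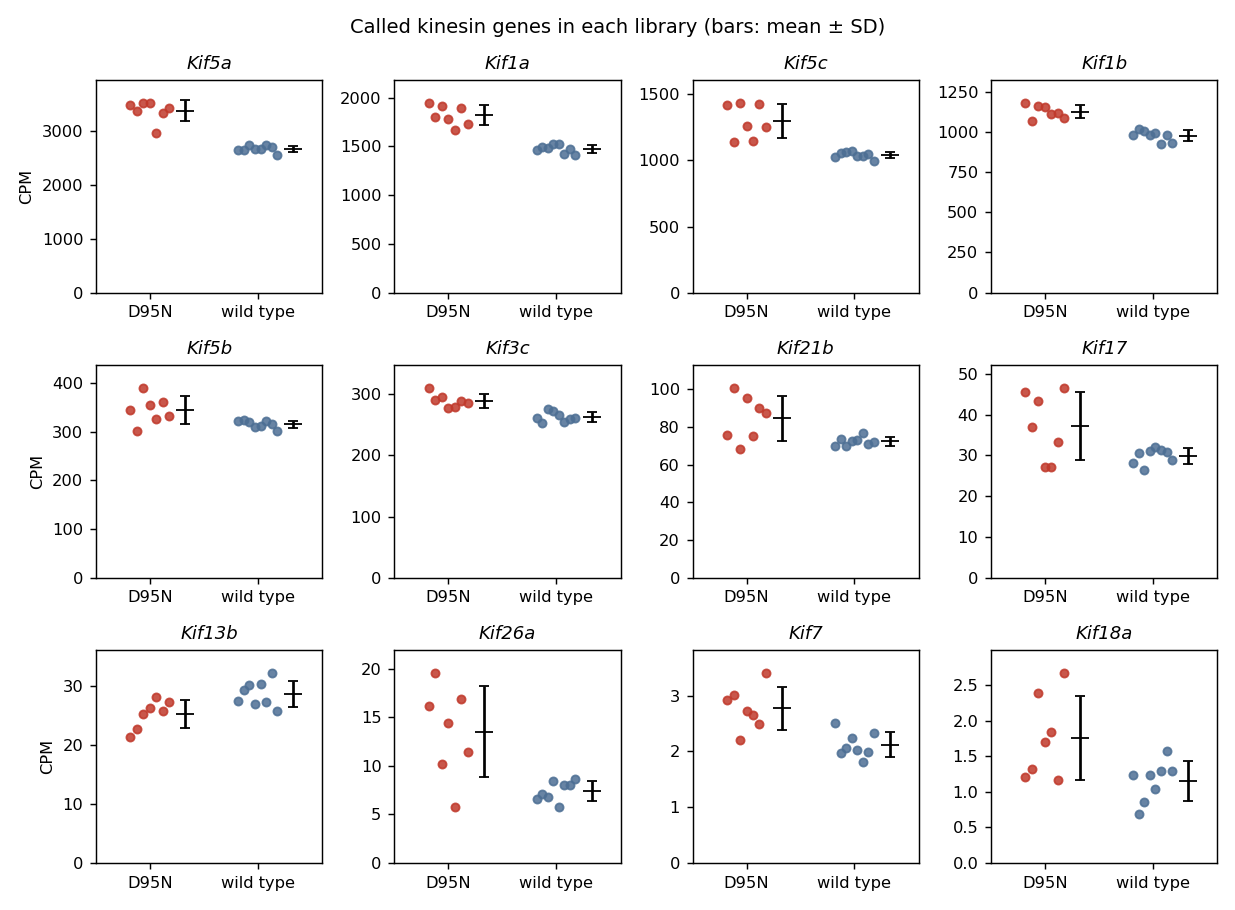
CPM of the 12 called kinesin genes in each library, D95N left and wild type right, with mean ± SD beside the points. In Kif5a, Kif1a, Kif5c, Kif1b and Kif3c the groups do not overlap, and in the other 7 at least 1 D95N library lies within or beyond the wild-type range on the other side.

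Kinesin-3 motors move fast and alone or as dimers along axons and dendrites. Kif1a (ENSMUSG00000014602, chromosome 1, 93015464 to 93101951, minus strand), which carries synaptic vesicle precursors and dense-core vesicles, ran from 1667 to 1949.8 CPM in D95N, with a median of 1806 CPM. In wild type it ran from 1410.1 to 1526 CPM, with a median of 1476 CPM, so the groups did not overlap. It was higher by 0.31 ± 0.04 on the log2 scale (SE; edgeR, adjusted p = 0.000112). Kif1b (ENSMUSG00000063077, chromosome 4, 149176319 to 149307693, minus strand), whose splice forms carry mitochondria or vesicle precursors, ran from 1069.7 to 1183 CPM in D95N, with a median of 1115 CPM. In wild type it ran from 922 to 1017 CPM, with a median of 981 CPM. The difference was 0.21 ± 0.03 on the log2 scale (SE; edgeR, adjusted p = 0.000404), again with no overlap. Gene counts do not separate the splice forms.

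None of the other 5 kinesin-3 genes passed as higher. Kif1c, a broadly expressed vesicle motor, ran from 124 to 157 CPM in D95N and from 129 to 148 CPM in wild type, with a log2 fold change of -0.03 (95% interval -0.13 to 0.07). Kif13b, which binds membrane-associated guanylate kinases, fell: it ran from 21.5 to 28.1 CPM in D95N, with a median of 25.8 CPM, and from 25.7 to 32.3 CPM in wild type, with a median of 28.4 CPM. All 7 D95N libraries were below the wild-type mean of 28.7 CPM and 3 were below every wild-type library. The log2 difference was -0.18 ± 0.06 (SE; edgeR, adjusted p = 0.0363). The call was lost without any 1 of D95N 4, 21, 28 or 44 or wild-type 16, 19, 30 or 43, with adjusted p from 0.0163 to 0.0836 over the 15 fits. Kif13a and Kif16b, motors of endosomes, had log2 fold changes of -0.13 and -0.14 that did not pass (edgeR, adjusted p = 0.108 and 0.0944). Without D95N 42, the highest D95N library for Kif13a, its log2 fold change was -0.18 and its adjusted p 0.00808.

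Kinesin-2 motors serve cilia and dendritic or axonal vesicles. Kif3a pairs with either Kif3b or Kif3c, and Kif17, a homodimer, is known in mice for carrying NMDA receptor subunits in dendrites. Kif3c (ENSMUSG00000020668, chromosome 12, 3365132 to 3406494, plus strand) ran from 277 to 311 CPM in D95N, with a median of 289 CPM, and from 253 to 275 CPM in wild type, with a median of 261 CPM. The groups did not overlap, and D95N was higher by 0.14 ± 0.03 on the log2 scale (SE; edgeR, adjusted p = 0.00381). Kif3a ran from 138 to 159 CPM in D95N and from 139 to 158 CPM in wild type, with a log2 fold change of 0.00 (95% interval -0.07 to 0.08). Kif3b, at a log2 fold change of 0.07 (95% interval -0.02 to 0.16), did not pass either (edgeR, adjusted p = 0.224).

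Kif17 (ENSMUSG00000028758, chromosome 4, 138250435 to 138301967, plus strand) was uneven among the D95N libraries. It ran from 27.2 to 46.6 CPM in D95N, with a median of 36.9 CPM, and from 26.3 to 32.2 CPM in wild type, with a median of 30.8 CPM. D95N 41 and 42, both at 27.2 CPM, lay within the wild-type range and the other 5 lay above it. Its mean gain was 0.31 ± 0.11 on the log2 scale (SE; edgeR, adjusted p = 0.0418). The call held in 4 of the 15 fits that leave out 1 library, those without D95N 41, D95N 42, D95N 44 or wild-type 30, and adjusted p ran from 0.00735 to 0.0961 over the 15. With offsets for GC content and length its log2 fold change was 0.21 (adjusted p = 0.128).

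Promoter sequences are shown for some of the members that rose, because 3 of them share a motif that few promoters hold. This set was chosen after the motif counts were seen. It leaves out Kif3c, Kif7 and Kif26a, which rose and whose entries lack that motif. Kif5a, Kif5b and Kif21b also rose but had no promoter entry, so no motif was searched in them. The sequences are RefSeq starts on GRCm38.p6, from 250 bases before to 50 after the start, in the direction of the gene. Entries matched 27 of the 34 genes, with 31 starts. Capitals mark the cAMP response element TGACGTCA and the GC box GGGCGG or its complement, each searched on both strands.
Kif5c, chr2:49619036-49619335, plus strand: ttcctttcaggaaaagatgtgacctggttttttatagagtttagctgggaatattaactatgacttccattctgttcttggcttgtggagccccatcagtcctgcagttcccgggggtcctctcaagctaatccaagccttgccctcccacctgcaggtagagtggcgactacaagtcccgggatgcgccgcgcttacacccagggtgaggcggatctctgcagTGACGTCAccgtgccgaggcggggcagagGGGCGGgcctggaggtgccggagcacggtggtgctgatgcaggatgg
Kif17, chr4:138262001-138262300, plus strand: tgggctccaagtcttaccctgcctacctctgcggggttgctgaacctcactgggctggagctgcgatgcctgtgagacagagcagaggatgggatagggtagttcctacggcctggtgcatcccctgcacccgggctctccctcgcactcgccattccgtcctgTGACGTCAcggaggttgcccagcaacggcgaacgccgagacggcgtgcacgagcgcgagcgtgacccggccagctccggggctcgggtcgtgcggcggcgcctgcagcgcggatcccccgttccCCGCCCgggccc
Kif18a, chr2:109280488-109280787, plus strand: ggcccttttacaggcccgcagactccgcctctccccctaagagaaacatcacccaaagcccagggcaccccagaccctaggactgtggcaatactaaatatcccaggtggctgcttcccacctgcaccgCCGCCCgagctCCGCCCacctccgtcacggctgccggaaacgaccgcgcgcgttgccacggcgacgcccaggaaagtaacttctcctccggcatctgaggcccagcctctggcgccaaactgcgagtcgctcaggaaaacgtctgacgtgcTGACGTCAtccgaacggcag
Kif1a, chr1:93101825-93102124, minus strand: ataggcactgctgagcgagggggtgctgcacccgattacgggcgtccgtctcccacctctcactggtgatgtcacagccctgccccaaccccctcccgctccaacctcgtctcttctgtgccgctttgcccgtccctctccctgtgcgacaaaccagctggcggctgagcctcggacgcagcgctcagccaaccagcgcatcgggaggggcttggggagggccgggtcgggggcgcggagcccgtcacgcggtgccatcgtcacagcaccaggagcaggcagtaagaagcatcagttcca
Kif1b, chr4:149307649-149307948, minus strand: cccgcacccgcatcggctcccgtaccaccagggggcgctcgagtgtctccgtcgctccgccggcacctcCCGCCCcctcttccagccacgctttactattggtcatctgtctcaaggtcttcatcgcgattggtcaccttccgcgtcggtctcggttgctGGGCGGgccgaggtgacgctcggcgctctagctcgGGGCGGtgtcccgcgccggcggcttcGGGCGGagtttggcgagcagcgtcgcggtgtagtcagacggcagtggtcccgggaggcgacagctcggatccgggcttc

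The cAMP response element was found at 3 of the 31 kinesin starts, those of Kif5c, Kif17 and Kif18a, and at 1.79% of all 32851 promoter windows of that length. Its first base lies 26 bases before the start in Kif5c and 86 before it in Kif17, and 30 after it in Kif18a. The GC box was found at 22 of the 31 starts, and at 35.7% of all windows. Kif1b holds 4 GC boxes in the window shown and Kif1a holds none. The kinesin starts had a median of 26 CpG dinucleotides per window, against 7 over all windows. The cAMP response element and the GC box each hold a CpG, and their shares among windows of similar CpG content were not computed. The E-box CACGTG, the TATA box TATAAA, the AP-1 site TGANTCA, the Egr site GCGTGGGCG and the NRF1 site were also searched, on both strands. The E-box was at 1 of the 31 starts and the TATA box at 4, against 7.15% and 13.6% of all windows. The AP-1, Egr and NRF1 letters were at none of the 31 (7.81%, 0.612% and 0.971% of all windows). Nothing about binding follows from a match or from its absence.

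Kinesin-4 motors differ from most others in slowing or stopping microtubule growth. Kif21b (ENSMUSG00000041642, chromosome 1, 136131389 to 136177998, plus strand), which is enriched in dendrites, ran from 68.0 to 101 CPM in D95N, with a median of 87.2 CPM, and from 69.9 to 76.9 CPM in wild type, with a median of 72.3 CPM. D95N 28, 41, 44 and 50 lay above every wild-type library, D95N 4 lay below all of them, and D95N 21 and 42 were within their range. The log2 difference came to 0.23 ± 0.07 (SE; edgeR, adjusted p = 0.0209), and to 0.15 with GC and length offsets (adjusted p = 0.0853). With oligodendrocyte, choroid plexus and striatum scores as covariates Kif21b stood at 0.23 and did not pass (edgeR, adjusted p = 0.142). Its paralog Kif21a, a cortical inhibitor of microtubule growth, ran from 253 to 298 CPM in D95N and from 275 to 304 CPM in wild type. The log2 fold change of Kif21a was -0.04 (95% interval -0.12 to 0.04). Kif2a, a kinesin-13 that takes tubulin off microtubule ends and trims axon branches, had a log2 fold change of -0.04 (95% interval -0.12 to 0.03). It ran from 82.9 to 98.1 CPM in D95N and from 90.1 to 99.1 CPM in wild type.

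Kif26a (ENSMUSG00000021294, chromosome 12, 112146208 to 112181747, plus strand) had the largest log2 fold change among the 34. It is an atypical kinesin-11 without motor activity, known in mice from the enteric nervous system, where it restrains growth factor signalling. It ran from 5.78 to 19.6 CPM in D95N, with a median of 14.4 CPM, and from 5.79 to 8.64 CPM in wild type, with a median of 7.56 CPM. The other 6 D95N libraries lay above every wild-type library, while D95N 42 lay just below all of them. This was a log2 gain of 0.86 ± 0.19 (SE), or 1.82-fold (edgeR, adjusted p = 0.00321), and it passed in each of the 15 fits that leave out 1 library. Kif26b, its paralog, averaged 20.9 ± 2.77 CPM in D95N (SD, n = 7) and 22.9 ± 1.17 CPM in wild type (SD, n = 8), which did not pass (edgeR, adjusted p = 0.164). Kif28, whose role is not given here, averaged 1.64 ± 0.258 CPM in D95N (SD, n = 7) and 1.61 ± 0.324 CPM in wild type (SD, n = 8; edgeR, adjusted p = 0.885).

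Among the 6 genes tied to cilia 1 rose (16.7%). Over all genes tested 15.2% were higher and 26.8% were called in either direction. Kif7, a cilium tip protein of the Hedgehog pathway, ran from 2.21 to 3.41 CPM in D95N, with a median of 2.72 CPM, and from 1.81 to 2.50 CPM in wild type, with a median of 2.04 CPM. All 7 D95N libraries were above the wild-type mean of 2.12 CPM and 5 were above every wild-type library. Kif7 was thus higher by 0.38 ± 0.11 on the log2 scale (SE; edgeR, adjusted p = 0.0132). With oligodendrocyte, choroid plexus and striatum scores as covariates Kif7 stood at 0.35 and did not pass (edgeR, adjusted p = 0.149). The other 5, Kif6, Kif9, Kif19a, Kif24 and Kif27, had log2 fold changes from -0.19 to -0.09, none of which passed. Of 20 genes of ependymal cells with motile cilia 1, Rarres2, was lower, and their summed level was 56.8 to 83.1 CPM in D95N and 61.3 to 97.0 CPM in wild type.

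Of the 9 spindle motors tested, 1 rose (11.1%), beside 15.2% higher and 26.8% called in either direction over all genes tested. Kif18a, which limits the length of spindle microtubules, had 22 to 75 counts in the 15 libraries. It ran from 1.17 to 2.67 CPM in D95N, with a median of 1.69 CPM, and from 0.690 to 1.58 CPM in wild type, with a median of 1.23 CPM. D95N 4, 41, 42 and 50 were above every wild-type library and the other 3 were within their range. A log2 difference of 0.60 ± 0.21 resulted (SE; edgeR, adjusted p = 0.0394). The call was lost without any 1 of D95N 4 or 50 or wild-type 11, 16, 19, 24 or 30, with adjusted p from 0.0251 to 0.0921 over the 15 fits, and with limma-voom. The other 8 were Kif4, Kif11, Kif14, Kif15, Kif20a, Kif20b, Kif22 and Kif23. They stood at means of 0.280 to 1.95 CPM, and their log2 fold changes ran from -0.40 (Kif20b) to 0.67 (Kif20a). None of 17 proliferation genes tested passed by edgeR (0 of 17 at an unadjusted p under 0.05), and their summed level was 21.1 to 26.2 CPM in D95N and 20.0 to 36.9 CPM in wild type. Mki67, which marks dividing cells, averaged 1.04 CPM in D95N and 1.25 CPM in wild type.

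**Figure D4:**
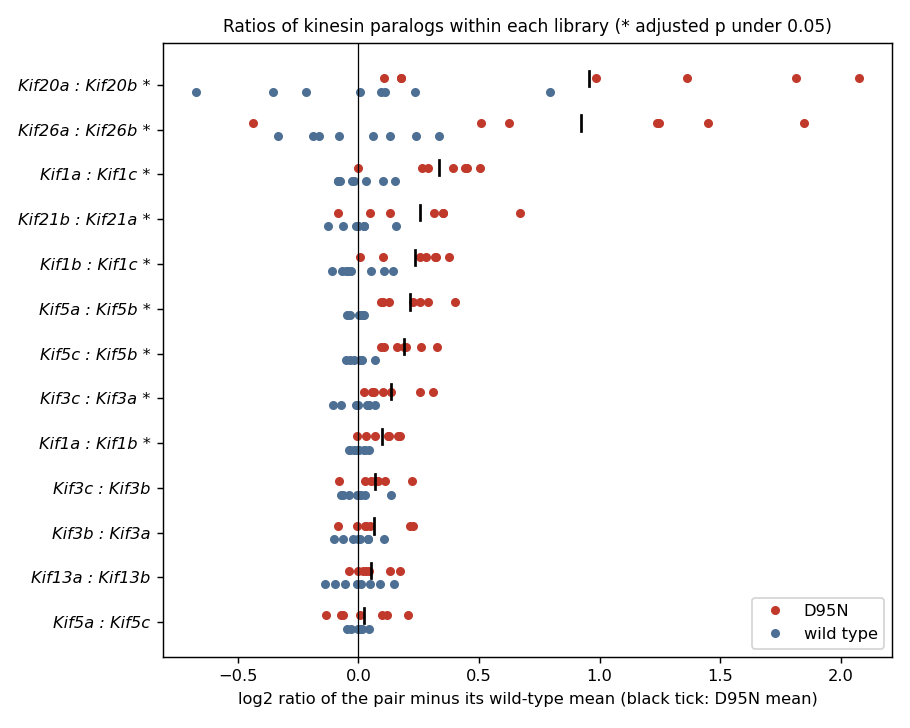
Log2 ratio of each pair of kinesin paralogs in each library, minus the wild-type mean of that pair, with D95N above wild type in each row and a black tick at the D95N mean. Both ratios against Kif5b separate the genotypes fully, while Kif5a to Kif5c is centred near 0.

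Ratios between close paralogs differed by genotype in 9 of 13 pairs. The ratio of 2 genes within a library does not depend on how libraries are scaled. It was compared between genotypes for all 13 pairs that share a number in their name, with an exact two-sided permutation of the 15 libraries and p adjusted over the 13. Each of the 9 also passed with any 1 library left out. No ratio was tested with offsets for GC content and length. With those offsets, log2 fold changes were 0.30 (Kif5a), 0.33 (Kif5c), 0.18 (Kif5b), 0.25 (Kif1a) and 0.21 (Kif1b), against 0.34, 0.32, 0.13, 0.31 and 0.21. The pairs were tested after the fold changes had been seen. In each pair the gene with the larger log2 fold change was put first, so the shared direction of the differences is not a result. Pairs within Kif1, Kif3 and Kif5 share genes, so the 13 are not independent. No share over other pairs of genes was computed, so the count is not shown to be particular to kinesins. The log2 ratio of Kif5a to Kif5b was higher by 0.21 in D95N (3.30 ± 0.11 in D95N, SD, n = 7, and 3.08 ± 0.03 in wild type, SD, n = 8; exact permutation test, adjusted p = 0.00202). The log2 ratio of Kif5c to Kif5b was higher by 0.19, and in both ratios the lowest D95N library exceeded the highest wild-type one. Both reached the smallest p the exact test can give, 0.000311. The log2 ratio of Kif5a to Kif5c differed by 0.02, from -0.01 to 0.05 with 1 library left out (exact permutation test, adjusted p = 0.615).

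In the Kif1 group, the log2 ratio of Kif1a to Kif1c was higher by 0.33 and that of Kif1b to Kif1c by 0.24 in D95N (exact permutation test, adjusted p = 0.00539 and 0.0101). Kif1a also gained on Kif1b, by 0.10 (exact permutation test, adjusted p = 0.0121). The log2 ratio of Kif3c to Kif3a was higher by 0.13 (exact permutation test, adjusted p = 0.0128), while Kif3c to Kif3b and Kif3b to Kif3a did not pass (exact permutation test, adjusted p = 0.146 and 0.235). Kif21b gained on Kif21a by 0.26 and Kif26a on Kif26b by 0.93 (exact permutation test, adjusted p = 0.0202 and 0.0162). Kif20a gained on Kif20b by 0.96 (exact permutation test, adjusted p = 0.0202), with both genes at most 1.99 CPM in any library. This value is uncertain, since 1271 of the 4338 exon bases of Kif20a overlap Cdc23 on the other strand. The log2 ratio of Kif13a to Kif13b differed by 0.05 and did not pass (exact permutation test, adjusted p = 0.291).

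**Figure D5:**
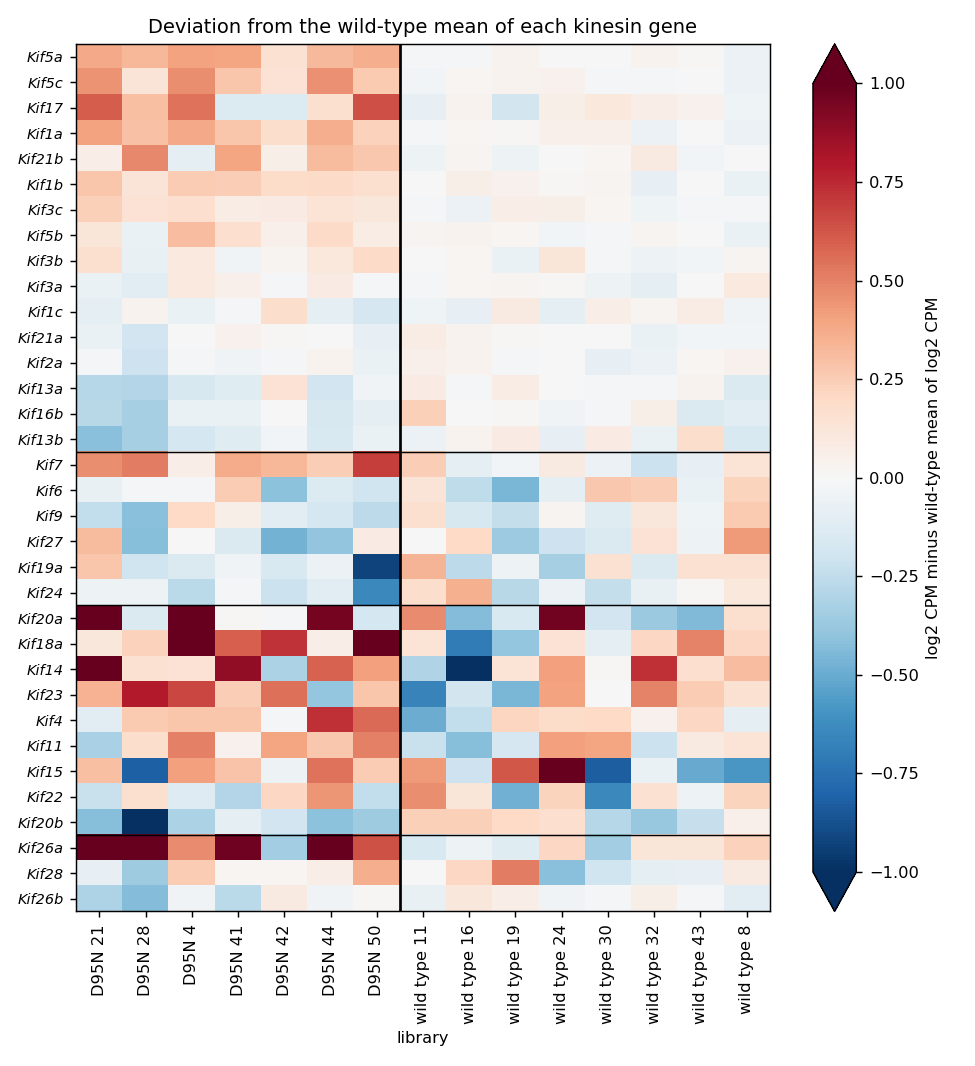
Log2 CPM of each kinesin gene in each library minus the wild-type mean of that gene, D95N libraries left of the line and genes in the order of roles in the plot of fold changes, with colours capped at 1 in either direction. Kif5a, Kif5c, Kif1a and Kif1b are raised in all 7 D95N libraries, while the spindle genes vary within both genotypes.

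The D95N libraries were not uniform. On the first principal component over all genes tested, D95N 42 stood at 13.9, within the wild-type range of 10.6 to 19.4, and the other 6 D95N libraries at -32.5 to -4.89. The median deviation of the 11 genes that rose from their wild-type mean was lowest in D95N 42, at 0.14 on the log2 scale, and ran from 0.24 to 0.38 in the other 6, against -0.04 to 0.05 in the wild-type libraries. This range is a description, since the 11 were chosen by the same contrast. D95N 42 had the lowest value of all D95N libraries for Kif5a, Kif1a and Kif26a, but not for Kif5c or Kif1b, where D95N 28 was lowest. Of the 34 genes 26 had the larger coefficient of variation in D95N, against 12439 of 14989 genes tested. Without D95N 42, 11 kinesins rose and 2 fell, Kif13a being added, and without D95N 41 and 42 11 rose and 3 fell.

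Transcripts of the members that rose had a higher median content of G and C. Their range, 38.2% to 61.7%, covered that of the members not called, 38.6% to 60.6%. The 11 genes that rose had a median GC content of 53.8% and the 22 that were not called 48.5%, a direction also seen over all genes tested, at 53.0% for those higher and 49.8% for those not called. Across the 18 kinesins with a mean of at least 10 CPM, GC content and log2 fold change had a Pearson correlation of 0.51, against 0.17 across all 34 and 0.19 across the 14928 genes tested with a GC value. The Spearman correlations were 0.45, 0.04 and 0.24, in the same order. The genes share the same 15 libraries, so these are descriptions. With offsets for GC content and length 9 kinesins rose and 1 fell, and Kif5a, Kif5c, Kif1a, Kif1b, Kif3c and Kif26a were among those called.

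Partner proteins of these motors were read from lists. Of 29 kinesin light chain and cargo adaptor genes tested 10 rose and 1, Kidins220, fell, with a median log2 fold change of 0.05. Over all genes tested 26.8% were called, and 30.9% of those with a mean of at least 10 CPM. Those of smallest p were Plekhm2, which links lysosomes to kinesin-1, at 1.23-fold, Mapk8ip1 (JIP1), a kinesin-1 cargo scaffold, at 1.21-fold, Madd, an exchange factor that works with Kif1a and Kif1b, at 1.17-fold, and Klc1, a kinesin-1 light chain, at 803 CPM in D95N and 668 CPM in wild type. Plekhm2 averaged 147 ± 5.68 CPM in D95N (SD, n = 7) and 120 ± 5.24 CPM in wild type (SD, n = 8), and its groups did not overlap (edgeR, adjusted p = 0.000112). Of the 4 kinesin-14 genes named Kifc, whose motors move to the minus end, Kifc3 fell, to 46.5 ± 5.53 CPM in D95N (SD, n = 7) against 53.6 ± 1.51 CPM in wild type (SD, n = 8; edgeR, adjusted p = 0.0167). The other 3 did not pass, with Kifc2 at 382 CPM in D95N and 408 CPM in wild type.

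Cytoplasmic dynein with its cofactor dynactin is the motor for transport back to the cell body. Of 27 dynein, dynactin and adaptor genes tested 9 rose and none fell, with a median log2 fold change of 0.06. Dctn3 rose 1.15-fold, Actr1b 1.11-fold, and Dctn1, the large dynactin subunit, 1.10-fold, and Dync1li1 rose by a log2 of 0.16. The heavy chain Dync1h1 averaged 720.4 CPM in D95N and 659.99 CPM in wild type (log2 difference 0.13; edgeR, adjusted p = 0.0197). Of 56 tubulins, microtubule-associated proteins and tubulin modifiers 11 rose and 4 fell. Map1b, a microtubule-associated protein of axons, rose 1.26-fold, and Camsap1, which caps minus ends, 1.15-fold. Dcx (doublecortin) fell to 20.6 CPM in D95N, against 32.3 CPM in wild type, and Mapt (tau) to 553 CPM in D95N, against 626 CPM in wild type. These counts stand beside 26.8% of all genes called.

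Some counts are uncertain for reasons of annotation. The strand setting of the counting is not given in the sources used here. Among the members that rose or fell, 2617 of the 7406 exon bases of Kif3c overlap the antisense gene 1110002L01Rik, and 588 overlap another. In Kif7, 877 of 4581 exon bases overlap the antisense gene 9330171B17Rik and 51 overlap Ticrr on the other strand. Overlaps are shorter in Kif5b, at 142 and 182 bases with antisense genes, and in Kif18a, at 11 bases with Mettl15. Reads from these opposite-strand overlaps cannot be told apart without strand. The antisense genes have no row of counts, while Ticrr and Mettl15 have. Kif17 shares 74 exon bases with Sh2d5 on the same strand, which strand would not separate. Some members not called overlap genes on the other strand too. Among them are Kif2a, over 1229 of 6393 exon bases (Dimt1), and Kif4, over 832 of 5514 (Pdzd11).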

How the data were processed

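The authors deposited unnormalised counts of reads by Ensembl gene ID for each mouse; per the submitters' processing notes, STAR, featureCounts and the GRCm38 build were used. Their versions, the annotation and the strand setting have no entry there. Of 22524 identifiers 22291 matched GENCODE M21, of the same build, which gave symbols, coordinates, exon lengths and GC content. The kinesins, their roles and the gene lists were chosen with earlier results of these data known.

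Counts of 7 D95N and 8 wild-type libraries were tested with edgeR 4.0.16 (quasi-likelihood, TMM factors, default filter, genotype as the 1 term, Benjamini-Hochberg at 0.05 over all genes) in R 4.3.3. CPM use the TMM factors. Standard errors are the log2 fold change over the square root of F, and 95% intervals use 13 residual degrees of freedom. Paralog ratios were tested in Python 3.11.15 with scipy 1.17.1 over all 6435 regroupings of the libraries. The test was checked on simulated counts. Alternatives used DESeq2 1.42.0, limma 3.58.1, sva 3.50.0, other scalings, filters and covariates, and each library left out. A list's score is the mean of its genes' standardised log2 CPM. Each library is 1 mouse, so p-values measure the spread between mice; no label gives a batch. Members named with full values are those called and the 10 of highest mean CPM, and list members are named by smallest p, with Snap25, Acta1, Mki67, Kifc2 and Dync1h1 chosen after their values were seen.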

Additional observations from a re-analysis of the deposited data

Results flagged for a closer look

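Among the 34 kinesin genes, 2 had a D95N library set apart from the rest of its group by a Dixon test at the 95% level, which chance gives in about 1 in 20 groups. Kif5a in D95N 42 stood at 2963 CPM, below the next lowest D95N library at 3339 CPM and still above all wild-type libraries. Kif20b, a motor of cytokinesis, stood at 0.329 CPM in D95N 28, with the next lowest D95N library at 0.533 CPM.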

How the results depend on the processing

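The calls of Kif5a, Kif5c, Kif1a, Kif1b, Kif3c and Kif26a held under every alternative run except blood and meningeal scores, where no kinesin was called higher or lower (0 and 0) and 25 of all genes passed. Their log2 fold changes there were 0.31 (Kif5a), 0.30 (Kif5c), 0.23 (Kif1a), 0.14 (Kif1b), 0.10 (Kif3c) and 0.65 (Kif26a), against 0.34, 0.32, 0.31, 0.21, 0.14 and 0.86. No kinesin whose call passed changed sign under any alternative run. Over all genes 4016 passed. With 1 surrogate variable 2353 did, and with oligodendrocyte, choroid plexus and striatum scores 2474. In each of these 2 runs 0 kinesins fell and 8 rose. The surrogate variable lost Kif13b, Kif17, Kif18a and Kif5b, and those scores lost Kif13b, Kif21b, Kif5b and Kif7. RLE factors, both other filters and DESeq2 gave 11 higher and 1 lower, and upper-quartile factors, library totals, limma-voom and GC and length offsets 9 and 1. With 1 library left out, 8 to 11 kinesins rose and 0 to 2 fell, of 3263 to 4976 genes in all. Without D95N 41 and 42, chosen after seeing the data, 3 fell. The 9 paralog pairs passed with any 1 of the 15 libraries left out. No paired analysis was possible because no label gives the litter of an animal, so litter was not accounted for in any test. Depth limits the spindle motors, which had at most 76 counts in any library.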
